A study of Mus musculus with 6 samples.

Results

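The 55 genes described here encode the machinery that moves proteins and RNA between the nucleus and the cytoplasm: the nucleoporins of the nuclear pore, the importins and exportins that carry cargo through it, and the Ran cycle that gives transport its direction. They were chosen by symbol from the 27179 genes of the count table: Nup, Kpna, Ipo and Xpo genes by pattern, and 16 more by name, such as Ran, Kpnb1 and Tpr. The rule reads symbols and no measured value, but the genes and lists were chosen with earlier results of these data known. Every name of the rule had a row, and 53 of the 55 genes passed the filter on low counts.

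RNA was sequenced from cultured mouse embryonic stem cells (mESCs), which are pluripotent, grown on gelatin in serum and the cytokine LIF. All cells expressed Tfe3-ERT2, murine Tfe3 fused to a tamoxifen-responsive receptor domain, so that 4-hydroxytamoxifen (4OHT) sends the factor into the nucleus. In 3 libraries the cells had 48 h of 4OHT at 1 µg/mL, and in 3 others the ethanol vehicle alone (EtOH). The labels name no cells without the fusion, no clone or promoter and no separate cultures. Effects of 4OHT itself and of the fusion therefore cannot be told apart, and p-values measure the spread between these libraries, which may be technical.

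Transport through the pore works as follows. The pore is a ring of nucleoporins: scaffold rings at its outer and inner face, membrane proteins that anchor it, a central channel lined with phenylalanine-glycine repeats, filaments toward the cytoplasm and a basket toward the chromatin. Importins bind cargo in the cytoplasm and let go when they meet Ran in its GTP form, which is kept high in the nucleus by Rcc1 on chromatin, while exportins bind cargo only together with Ran-GTP. The inducible design itself rests on this traffic, since the fusion acts once it is inside the nucleus.

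Most of these genes were lower after 4OHT, each by a modest amount. Of the 53 tested, 33 were lower and 2 higher at an adjusted p under 0.05 (edgeR quasi-likelihood test, Benjamini-Hochberg adjustment over 12345 tested genes), and 18 were not called. Among all tested genes 20.6% were called lower and 21.4% higher. Transport genes are abundant, with a median of 215 CPM in EtOH against 31.6 for all tested genes (CPM, counts scaled to library size). Among the 4015 tested genes with at least 60 CPM in EtOH, 34.9% were called lower and 23.9% higher, beside 31 and 2 of the 50 transport genes at that level. DESeq2 called 26 of the transport genes lower and 1 higher, where it called 12.2% and 13.8% of all genes it tested and 26.1% and 19.1% of those with at least 60 CPM. With limma-voom the transport counts were 33 and 2, beside 20.3% and 20.9% of all tested genes and 34.4% and 23.7% of those with at least 60 CPM.

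The size of the falls was small and even. The 33 lower genes were between 1.08-fold and 1.38-fold lower with a median of 1.18-fold, and 9 reached 1.25-fold. The median log2 fold change (4OHT over EtOH) was −0.14 over the 53 genes and 0.00 over all tested genes. In 34 genes all 3 values of the 4OHT libraries lay below all 3 EtOH values, and in 4 all lay above. Over all tested genes 23.7% lay apart in the lower direction and 25.1% in the higher one. These backgrounds for the median and the overlap are not matched for level. Genes with at least 60 CPM in EtOH also leaned lower by edgeR calls (34.9% lower, 23.9% higher).

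**Figure D1:**
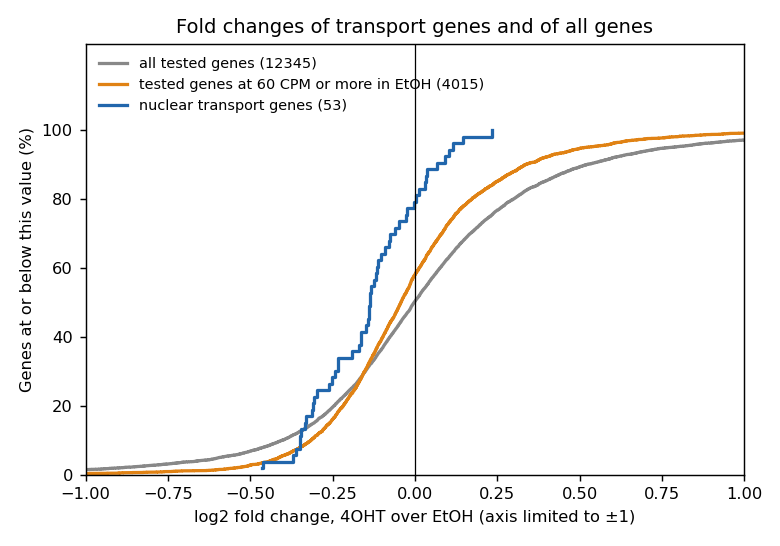
Cumulative share of genes (y axis, percent) by log2 fold change of 4OHT over EtOH (x axis, limited to ±1) for 53 nuclear transport genes (blue), all 12345 tested genes (grey) and the 4015 tested genes with at least 60 CPM in EtOH (orange). The median of the blue curve lies near −0.14.

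Summed over the 55 genes, the libraries held 14439, 14449 and 14358 CPM in EtOH and 13104, 12842 and 12997 CPM in 4OHT. The sum was 9.95% lower in 4OHT, and every 4OHT library lay below every EtOH library. In bulk RNA, fewer cells of a type and less RNA per cell cannot be told apart.

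**Figure D2:**
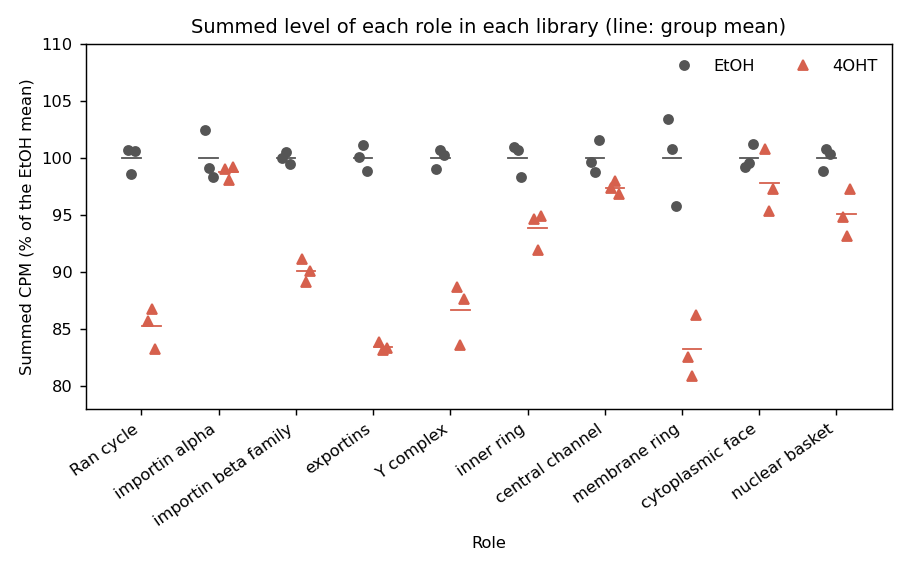
Summed CPM of each role as a percent of its EtOH mean (y axis, which does not start at 0) in each library, with circles for EtOH, triangles for 4OHT and lines for group means. Exportins, membrane ring and Ran cycle lie lowest in 4OHT, while importin alpha, central channel and cytoplasmic face lie near their EtOH level.

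Total counts per library ran from 4092877 to 6427880, so that 3 counts equal between 0.467 and 0.733 CPM, a floor for counting error only. Tfe3 RNA, which pools the endogenous gene and the fusion as far as they share sequence, had means of 1038 ± 35.1 CPM without 4OHT and 832 ± 4.34 with it (SD, n = 3 each; 1.25-fold lower, edgeR adjusted p = 9.8e-19), and the location of the protein was not measured. The cells carried mESC transcripts in both groups. The 10 pluripotency markers summed to between 5116 and 5256 CPM in EtOH and between 5196 and 5243 in 4OHT, but 4 of them were higher and 4 lower, among them Esrrb 1.56-fold and Klf4 1.39-fold higher and Utf1 1.29-fold and Tdgf1 1.28-fold lower. The 8 trophectoderm markers summed to between 447 and 469 CPM in EtOH and between 958 and 979 in 4OHT. All 6 tested markers of that list were higher. The keratins Krt8 and Krt18 (2.23-fold and 2.31-fold) made up most of the sum, and at low levels Hand1 was 5.89-fold higher (1.54 to 8.96 CPM), Eomes 2.62-fold (4.97 to 13.1 CPM) and Gata3 2.24-fold (3.48 to 7.93 CPM). Cdx2 and Elf5, which define the lineage, were not tested: Cdx2 had means of 2.25 CPM in EtOH and 1.54 in 4OHT and Elf5 had counts in 1 library only. Markers of primitive endoderm reached at most 28.1 CPM in sum, fibroblasts 25.3, mesendoderm 6.56 and two-cell-like cells 0.217, with Lum, Zscan4c, Zscan4d, Zscan4f and Tcstv3 at no counts. The mesendoderm sum went from between 5.66 and 6.56 CPM in EtOH to between 1.085 and 1.87 in 4OHT. Its 1 tested marker, T, was 8.29-fold lower at a low level (4.67 to 0.509 CPM, edgeR adjusted p = 1.1e-09). No tested marker of primitive endoderm or fibroblasts was called.

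Genes of the cell cycle were lower too. Of 20 listed S phase and mitosis genes, all tested, 15 were lower by edgeR and by limma-voom and 12 by DESeq2, with a median log2 fold change of −0.16. All 20 were above 60 CPM in EtOH, where 34.9% of tested genes were called lower by edgeR and 26.1% by DESeq2. The count of higher genes was 0 with each of these tools and at an unadjusted edgeR p under 0.05. Their sum went from between 7388 and 7391 CPM in EtOH to between 6281 and 6309 in 4OHT. The cyclin gene Ccne1 was 1.49-fold lower, and the replicative helicase gene Mcm6 and the topoisomerase gene Top2a 1.34-fold and 1.33-fold lower. The part of these shifts in the values of the transport genes was not tested.

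Because Tfe3 binds E-boxes with the core CACGTG, the RefSeq promoter windows of these genes (GRCm38.p6, 250 bases before to 50 after a start) were searched for it. A window was at hand for 45 of the 55 genes. CACGTG, which reads the same on both strands, stood in the windows of 9 (20%), against 12.2% of 9635 tested genes and 8.09% of all 27025 genes with a window. Counted by window, the shares were 17% of 53, against 10.2% of the 12360 windows of tested genes and 7.15% of all 32851. These motif shares are not matched for level. Of these 9 genes, 5 were lower, 1 higher and 3 not called, beside 22, 1 and 12 of the 35 tested transport genes whose windows lack it. By edgeR 20.6% of all tested genes were called lower and 21.4% higher, or 34.9% and 23.9% of those with at least 60 CPM in EtOH. The calls with and without CACGTG were not tested against each other. The stretches around the match are shown for the called genes in which it lies before the start, because they include Tnpo2, one of the 2 genes that were higher. CACGTG is in capitals, and each is read 5′ to 3′ on the gene's strand.
Tnpo2 (chr8:85036718-85036802, plus strand, higher in 4OHT): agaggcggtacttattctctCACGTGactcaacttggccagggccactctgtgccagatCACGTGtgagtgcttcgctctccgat
Ran (chr5:129020018-129020063, plus strand, lower): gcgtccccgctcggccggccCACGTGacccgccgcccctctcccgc
Ipo7 (chr7:110018158-110018203, plus strand, lower): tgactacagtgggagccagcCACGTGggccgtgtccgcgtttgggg
Nup93 (chr8:94214369-94214414, plus strand, lower): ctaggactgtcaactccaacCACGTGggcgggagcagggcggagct
Xpot (chr10:121626538-121626582, minus strand, lower): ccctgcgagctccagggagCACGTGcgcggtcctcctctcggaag

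Tnpo2 held 2 matches, starting 155 and 116 bases before the start, and the first of them extends to TCACGTGA, the palindrome that contains the core. It was the 1 gene of the 45 with TCACGTGA (2.22%, against 2.29% of tested genes), and 0 of the 45 held the CLEAR motif of TFE factors, a longer palindrome around the same core (0.83% of tested genes), or TCATGTG on either strand (2.45%). Nup188 also held 2 matches, and Nup54 and Ranbp2 1 each, and none of these 3 was called. In Ipo4 the match lies after the start. A match is a string of letters, and no binding was measured in these libraries.

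All 5 genes of the Ran cycle were lower, or 4 with DESeq2. Beside them, 20.6% of all tested genes were called lower by edgeR and 12.2% by DESeq2. Among genes with at least 60 CPM in EtOH the shares were 34.9% and 26.1%. With 5 genes, the class was not tested against these shares. Ran, the GTPase itself, was at 605, 608 and 607 CPM in EtOH and 549.5, 557 and 534 CPM in 4OHT. Gm13461 repeats 26.9% of its transcript. The groups did not overlap, and the gene was 1.11-fold lower (log2 fold change −0.15 with an SE of 0.03, edgeR adjusted p = 0.00013). Rcc1 (chromosome 4, 132331919 to 132345750, GRCm38.p6 as are all gene positions here) encodes the exchange factor that loads Ran with GTP on chromatin. It was at 208, 201 and 223 CPM in EtOH and 147, 161 and 149 in 4OHT. At 1.38-fold lower it had the largest fold change of the 53 genes (log2 fold change −0.46 with an SE of 0.05, edgeR adjusted p = 1.3e-17).

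Ranbp1, a cytoplasmic cofactor that helps Ran hydrolyse GTP, had the highest level per length of all 55 genes, with a mean of 519 RPKM (CPM per kilobase) in EtOH and 412 in 4OHT. The same-strand model Gm49776 overlaps 16.9% of its exon bases and shares 26.1% of its transcript. On the CPM scale its libraries were at 447, 442 and 436 in EtOH and 360.3, 353 and 339 in 4OHT, all 3 of the latter below the former (1.26-fold lower, edgeR adjusted p = 6e-15). Nutf2, which carries Ran-GDP back into the nucleus, was at 22.2, 17.6 and 16.2 CPM in EtOH and 13.5, 11.9 and 15.5 in 4OHT. The groups were barely apart, 4 other gene models repeat 91.6% of its transcript, and the call (1.38-fold lower, edgeR adjusted p = 0.0069) was lost without EtOH replicate 1 (0.16), without 4OHT replicate 2 (0.054) and with DESeq2 (0.092). Rangap1, the GTPase activator at the cytoplasmic side, had a mean of 388 ± 11.9 CPM without 4OHT and 356 ± 6.98 with it, and the 1.09-fold fall passed the test (edgeR adjusted p = 0.0051).

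Importin alpha genes went both ways. These adaptors bind the classical nuclear localisation signal and are handed to importin beta, and they form subfamilies, one of Kpna2, one of Kpna3 and Kpna4, and one that includes Kpna1 and Kpna6. Kpna4 (chromosome 3, 69072221 to 69127092) rose, from 153, 151 and 145 CPM in EtOH to 170.2, 183 and 177 in 4OHT. Every 4OHT library lay above every EtOH library (1.18-fold higher, log2 fold change 0.24 with an SE of 0.05, edgeR adjusted p = 1.8e-05), and it was the 1 higher gene whose call held under all 15 alternatives. Its nearest relative Kpna3 (chromosome 14, 61365186 to 61439947) fell, from 287, 274 and 270.1 CPM to 243, 224 and 241 (1.17-fold lower, edgeR adjusted p = 9.3e-07), again with no overlap.

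Kpna2, an adaptor known to import the pluripotency factor Oct4, was at 47.5, 36.6 and 44.8 CPM in EtOH and 33.6, 34.8 and 33.3 in 4OHT. EtOH replicate 2 lay close to the 4OHT values, and the call (1.27-fold lower, edgeR adjusted p = 0.0015) was lost without EtOH replicate 1 (0.058). Its level is uncertain for another reason: 95.8% of the bases of its longest coding transcript also lie, at 95% identity or more, in transcripts of 5 other gene models, and how the counting treated such reads is not given in the sources used here. Kpna1 had means of 148 ± 1.63 and 159 ± 5.02 CPM (log2 fold change 0.09 at an edgeR adjusted p of 0.13) and Kpna6 at 154 ± 4.31 and 158 ± 3.50 (0.03, adjusted p = 0.63), and neither was called. Kpna7, the adaptor of the oocyte and early embryo, had no counts without 4OHT and 1, 0 and 3 counts with it, and was not tested.

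The sums of the family differed by less than their spread, at 772 ± 17.0 CPM in EtOH and 763 ± 4.95 in 4OHT, while its make-up shifted. By RPKM, Kpna3 made up 34.7 ± 0.352% of the family in EtOH and 30.2 ± 1.20% in 4OHT, and Kpna4 21.0 ± 0.521% and 25.2 ± 1.01% (SD, n = 3 each). Kpna2 went from 11.0 ± 1.26% to 8.86 ± 0.258%, Kpna1 from 19.3 ± 0.597% to 21.0 ± 0.616% and Kpna6 from 14.1 ± 0.404% to 14.7 ± 0.382%. As counted, Kpna3 held the largest share in every library of both groups. The uncertain level of Kpna2, with 95.8% of its transcript in other gene models, enters every share. The shares and their order may therefore depend on how such reads were counted. These shares are a description without a test.

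**Figure D3:**
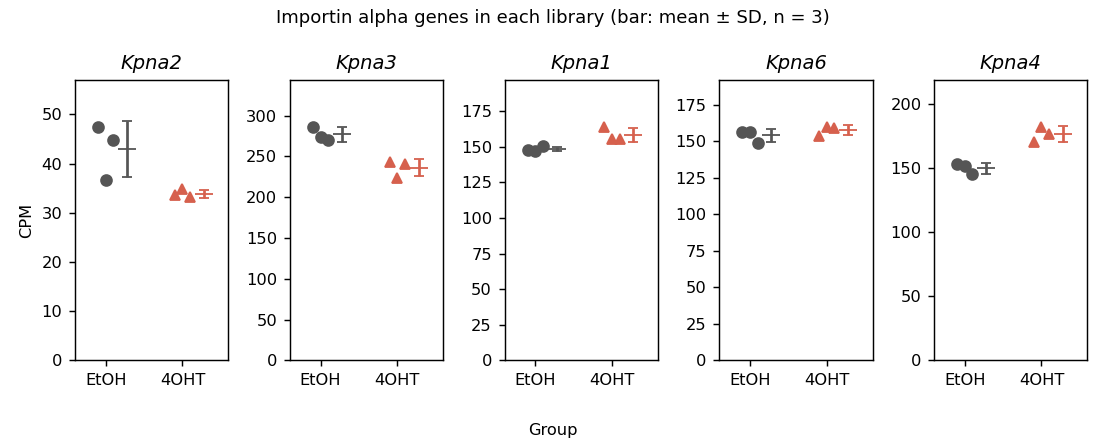
CPM (y axes, each starting at 0) of 5 importin alpha genes in each library by group, with the mean ± SD of 3 libraries beside the points. Kpna2 and Kpna3 are lower in all 4OHT libraries, Kpna1 and Kpna4 higher, and the groups of Kpna6 overlap.

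In the importin beta family, receptors that carry cargo through the pore, 7 of 11 genes were lower and 1 higher. By edgeR 20.6% of all tested genes were called lower and 21.4% higher, or 34.9% and 23.9% of those with at least 60 CPM in EtOH. The difference of the class from these shares was not tested. Kpnb1 (chromosome 11, 97159710 to 97187892) encodes importin beta itself, the partner of importin alpha. It was at 1116, 1085 and 1090.4 CPM in EtOH and 935, 908 and 923 in 4OHT. The groups were well apart (1.19-fold lower, log2 fold change −0.25 with an SE of 0.03, edgeR adjusted p = 5.2e-13). Ipo11, which imports ubiquitin-conjugating enzymes, was at 136, 149 and 131 CPM in EtOH and 119.6, 111 and 108 in 4OHT (1.24-fold lower, edgeR adjusted p = 4.9e-07). Ipo7, a receptor for ribosomal proteins and histones, was at 397, 383 and 367 CPM against 338, 332 and 353 (1.12-fold lower, edgeR adjusted p = 0.00019), without overlap in either gene.

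The family's most abundant member by RPKM was Ipo5, another receptor for ribosomal proteins, at 317 RPKM in EtOH and 288 in 4OHT. On the CPM scale it went from 1457 ± 26.3 to 1324 ± 26.2 (1.10-fold lower, edgeR adjusted p = 2.9e-05). The receptor of hnRNP proteins Tnpo1 and that of SR splicing factors Tnpo3 were 1.10-fold lower each (edgeR adjusted p = 0.0026 and 0.0022), and Gm6493 repeats 31.3% of the Tnpo1 transcript. Ipo4, a histone importer, was also 1.10-fold lower (edgeR adjusted p = 0.021). Its call was lost with DESeq2 (0.13) and without EtOH replicate 1 (0.18) or EtOH replicate 3 (0.050), 4OHT replicate 1 (0.052) or 4OHT replicate 3 (0.064), and 55.3% of its exon bases belong also to a gene model on the same strand, Gm49378.

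Tnpo2 (chromosome 8, 85036873 to 85057585), the close relative of Tnpo1, was the exception in the family. Its libraries were at 209, 221 and 219 CPM in EtOH and 242, 229 and 233 in 4OHT, apart but by little (1.08-fold higher, log2 fold change 0.12 with an SE of 0.04, edgeR adjusted p = 0.026). The call was lost with upper quartile factors (adjusted p = 0.13), with DESeq2 (0.13), without EtOH replicate 1 (0.17) and without 4OHT replicate 1 (0.12). The opposite-strand gene model A230103J11Rik covers 10.6% of the exon bases of Tnpo2, and the strand setting of the counting is not given in the sources used here. Ipo8, Ipo9 and Ipo13 missed the threshold, at log2 fold changes of −0.10, −0.08 and 0.04. Ipo8 and Ipo9 were called lower with upper quartile factors (edgeR adjusted p = 0.031 and 0.026), and Ipo9 also without 4OHT replicate 2 (0.042).

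Of 7 exportins 6 were lower, each with no overlap between groups, and the summed level went from 2245 ± 26.0 to 1873 ± 8.53 CPM, 16.6% lower. Among all tested genes 20.6% were called lower by edgeR, or 34.9% of those with at least 60 CPM in EtOH, and 23.7% lay apart in the lower direction. With 7 genes, the class was not tested against these shares. Xpo1 (chromosome 11, 23255909 to 23297597), also called CRM1, exports proteins with a leucine-rich signal, the MiT/TFE factor TFEB among them. It was at 717, 716 and 718 CPM in EtOH and 566, 548 and 559.8 in 4OHT, a gap far wider than the spread in either group. The gene was 1.28-fold lower (log2 fold change −0.36, SE 0.03) with the smallest p of the 53 genes (edgeR adjusted p = 2.6e-20).

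Xpo7, an exportin of broad cargo, was at 255, 258 and 256 CPM in EtOH and 200.3, 214 and 206 in 4OHT (1.24-fold lower, edgeR adjusted p = 1.3e-10). Xpot, which exports tRNA, was at 273, 279 and 258 CPM in EtOH and 214, 227 and 219 in 4OHT (1.23-fold lower, edgeR adjusted p = 5.6e-10). Its transcript has a partial copy in Gm7389, which covers 48.1% of it. Cse1l, which returns importin alpha to the cytoplasm, was at 470.5, 463 and 445 CPM in EtOH and 396, 371 and 385 in 4OHT (1.20-fold lower, edgeR adjusted p = 5e-10). The 4OHT libraries lay below the EtOH libraries in these 3 genes as well.

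Xpo4, a carrier of the translation factor eIF5A, was 1.18-fold lower and Xpo5, the exporter of microRNA precursors, 1.14-fold lower (edgeR adjusted p = 4.8e-05 and 0.0002). Xpo6, which exports actin with profilin, was at 166, 177 and 164 CPM in EtOH and 185, 179 and 180.1 in 4OHT. Its 4OHT values lay above the others, but it was not called (log2 fold change 0.10 at an edgeR adjusted p of 0.073), though it was without EtOH replicate 2 (0.034) and after thinning to equal depth (0.049).

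**Figure D4:**
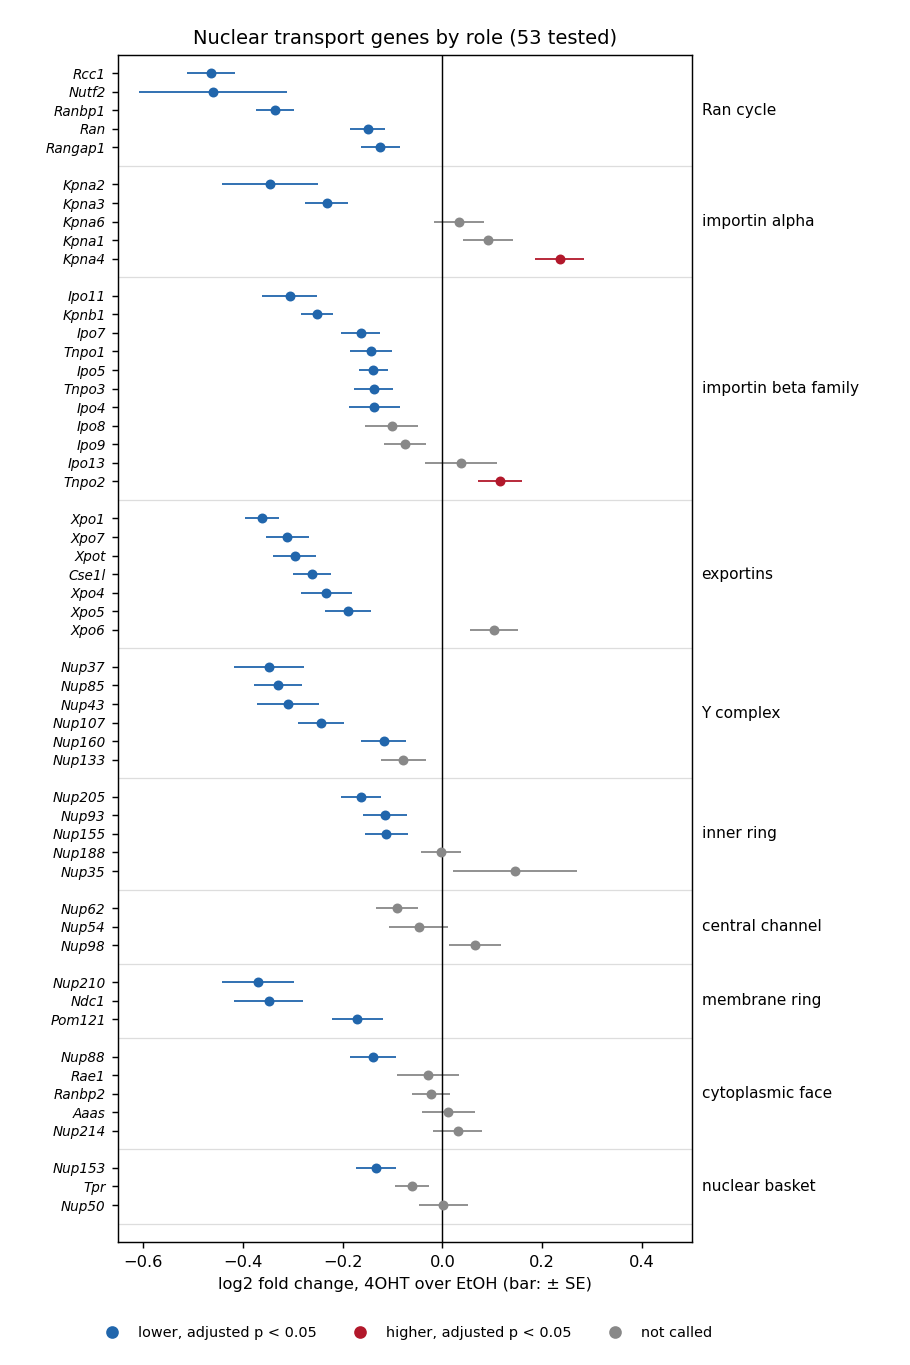
Log2 fold change of 4OHT over EtOH with its standard error (x axis) for the 53 tested genes, grouped by role and ordered by value, with called lower genes in blue, called higher genes in red and genes not called in grey. All 5 Ran cycle genes and 6 of 7 exportins are blue, and Kpna4 and Tnpo2 are the red points.

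Of 25 tested nucleoporins, 13 were lower by edgeR and limma-voom and 8 by DESeq2, and 0 were higher by any of them or at an unadjusted edgeR p under 0.05. Of these nucleoporins 24 were above 60 CPM in EtOH, the 13 lower ones among them, beside the 34.9% (edgeR) and 26.1% (DESeq2) of all tested genes at that level called lower. The share with DESeq2 is near its background, and the counts for single parts of the pore, with 3 to 6 genes each, cannot be set apart from these shares. Differences between parts were not tested. In the Y complex, the outer scaffold ring that also sits at kinetochores in mitosis, 5 of the 6 genes matched by the rule were lower. Nup85 was at 194, 185 and 186 CPM in EtOH and 147, 152 and 152 in 4OHT (1.26-fold lower, edgeR adjusted p = 9.5e-10). Nup37 was at 84.0, 79.8 and 91.8 CPM in EtOH and 72.9, 65.6 and 63.1 in 4OHT (1.27-fold lower, edgeR adjusted p = 8.3e-06). Nup43 was at 106, 113 and 106 CPM against 93.5, 81.0 and 88.3 (1.24-fold lower, edgeR adjusted p = 7.7e-06).

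In each of these subunits the 4OHT libraries lay below the EtOH libraries. Nup107, a core subunit, had means of 211 ± 4.26 and 178 ± 4.59 CPM and was 1.18-fold lower (edgeR adjusted p = 2.1e-06). Nup160 was 1.09-fold lower with overlapping groups (edgeR adjusted p = 0.027), and its call was lost with DESeq2 (0.17), with no filter (0.054) and without EtOH replicate 2 (0.27), EtOH replicate 3 (0.065) or 4OHT replicate 2 (0.37). Nup133 had means of 217 ± 6.13 and 206 ± 10.1 CPM and missed the threshold (log2 fold change −0.08 at an edgeR adjusted p of 0.16), but was called lower with upper quartile factors (0.034).

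The membrane ring, which anchors the pore in the envelope, had 3 tested genes and all were lower. Nup210 (chromosome 6, 91013067 to 91118322), known for its rise in muscle and neural differentiation, was at 84.2, 84.3 and 74.3 CPM in EtOH and 57.5, 61.0 and 68.6 in 4OHT. It was the most changed nucleoporin (1.29-fold lower, log2 fold change −0.37 with an SE of 0.07, edgeR adjusted p = 3.6e-06). Ndc1 was at 85.4, 85.0 and 83.9 CPM in EtOH and 64.7, 63.8 and 70.6 in 4OHT (1.27-fold lower, edgeR adjusted p = 6.7e-06). In both genes the groups were apart, with 4OHT replicate 3 nearest to EtOH.

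Pom121, the third anchor, was at 163, 153 and 150.3 CPM against 143, 135 and 137 (1.13-fold lower, edgeR adjusted p = 0.0034). The call was lost with DESeq2 (0.052) and without EtOH replicate 1 (0.071). Of its exon bases 11.9% lie within the opposite-strand gene Nsun5. Nup210l, a relative of Nup210, had between 4 and 15 counts per library and was not tested.

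In the inner ring, which joins the scaffold to the channel, 3 of 5 genes were lower, by 1.12-fold or less. Nup205, a large scaffold subunit, was at 345, 349 and 361 CPM in EtOH and 324, 300.4 and 319 in 4OHT (1.12-fold lower, edgeR adjusted p = 0.00028). Nup93, which links the ring to the channel, was at 238, 240.1 and 229 CPM against 219.6, 218 and 216 (1.08-fold lower, edgeR adjusted p = 0.025). Nup155 was at 243, 244 and 240.1 CPM against 220.1, 217 and 235 (1.08-fold lower, edgeR adjusted p = 0.027). The 3 genes did not overlap between groups.

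The calls of Nup93 and Nup155 were lost with DESeq2 (0.11 and 0.12) and with no filter (0.061 and 0.066), without EtOH replicate 1 (0.088 and 0.075), EtOH replicate 2 (0.090 and 0.073) or 4OHT replicate 1 (0.051 and 0.11) and after thinning (0.12 and 0.051), as was that of Nup93 without 4OHT replicate 3 (0.074) and that of Nup155 without 4OHT replicate 2 (0.12). Nup188 had near-equal means, 313 ± 19.3 and 313 ± 3.27 CPM (log2 fold change 0.00 at an edgeR adjusted p of 0.97). Nup35 had means of 21.5 ± 1.43 and 23.8 ± 1.96 CPM (log2 fold change 0.15 at an edgeR adjusted p of 0.36), and 99.2% of its transcript is repeated in Gm4353.

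In the central channel 0 of 3 genes were called by edgeR, DESeq2 or limma-voom, and 1, Nup62, had an unadjusted edgeR p under 0.05. Nup62, the main channel protein, was at 255, 260.0 and 269 CPM in EtOH and 254.8, 244 and 238 in 4OHT (log2 fold change −0.09 with an SE of 0.04, edgeR adjusted p = 0.076), and it was called with upper quartile factors alone. Nup54, its partner, and Nup98, which also takes part in RNA export, had log2 fold changes of −0.05 and 0.07. Gm15790 repeats 53.3% of the Nup54 transcript.

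On the cytoplasmic face 1 of 5 genes was lower. Nup88, the partner of Nup214, was at 218, 208 and 218 CPM in EtOH and 204, 186 and 196 in 4OHT (1.10-fold lower, edgeR adjusted p = 0.0083). That call was lost with DESeq2 (0.068), after thinning to equal depth (0.052) and without 4OHT replicate 2 (0.067). Nup214 itself was at 167 ± 6.53 and 172 ± 12.8 CPM and Ranbp2, the filament protein that binds Ran and SUMO-modified Rangap1, at 415 ± 13.0 and 409 ± 20.2. Rae1, an RNA export factor, was at 98.7 ± 5.18 and 96.9 ± 3.50 CPM and Aaas, which encodes aladin, at 129 ± 2.28 and 130.2 ± 1.93. These 4 had log2 fold changes between −0.03 and 0.03.

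In the nuclear basket 1 of 3 genes was lower. Nup153, tied in mESCs to the silencing of developmental genes, was at 311, 315 and 326 CPM in EtOH and 291, 280.2 and 297 in 4OHT (1.10-fold lower, log2 fold change −0.13 with an SE of 0.04, edgeR adjusted p = 0.0042). Tpr, the filament of the basket, was at 612, 612 and 605 CPM in EtOH and 587, 572 and 594 in 4OHT. The groups lay apart, but the gap was small and the gene was not called (log2 fold change −0.06 at an edgeR adjusted p of 0.15). It was called lower with upper quartile factors (0.018). Nup50 had means of 169.8 ± 8.54 and 169.4 ± 7.06 CPM (log2 fold change 0.00 at an edgeR adjusted p of 0.98).

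**Figure D5:**
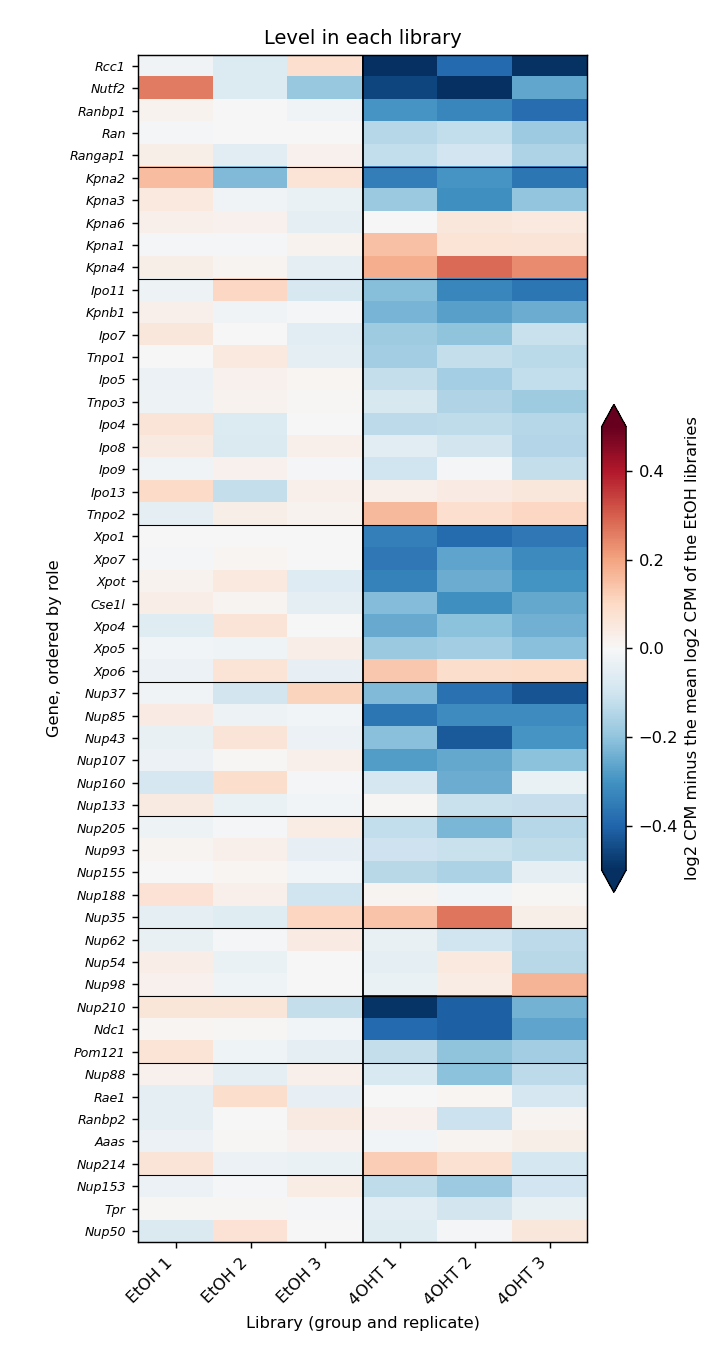
Level of the 53 tested genes (rows, by role) in each library (columns) as log2 CPM minus the mean log2 CPM of the EtOH libraries, with blue for lower, red for higher and colours that saturate at ±0.5. The 4OHT columns are blue in most rows of the Ran cycle, exportins, Y complex and membrane ring. They are red in Kpna4 and Tnpo2, which were called higher, and in rows that were not called, such as Xpo6 and Kpna1.

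The calls were also counted by whether transcripts of other genes share bases with the gene's own transcript. Such bases lie in copies elsewhere or in gene models that overlap at the same locus. Nsun5 for Pom121, Gm29773 for Nup133, Gm49776 for Ranbp1 and Gm49378 for Ipo4 are overlapping models, so the split mixes both kinds. Of the 11 tested genes with at least 10% of their transcript bases in transcripts of other genes, 8 were lower by edgeR and limma-voom and 5 by DESeq2, and 0 were higher by any of them or at an unadjusted edgeR p under 0.05. Among the other 42, 25 were lower and 2 higher by edgeR, with a median log2 fold change of −0.13. Of all tested genes 20.6% were called lower and 21.4% higher by edgeR, and 12.2% lower by DESeq2. Among genes with at least 60 CPM in EtOH, 34.9% were called lower by edgeR and 26.1% by DESeq2. The sets were not tested against each other or against these shares.

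Other genes of nuclear transport were taken from a list of partners outside the rule, among them the other Y complex subunits, messenger RNA export factors and export adaptors. The list also holds Nupl1 and Nupl2, nucleoporin genes whose symbols the rule does not match. The counts by part of the pore therefore leave them out, and neither was called (edgeR adjusted p = 0.1 and 0.19). Of 40 tested, 12 were lower and 2 higher (median log2 fold change −0.11), or 6 and 1 with DESeq2, and 6 were lower without EtOH replicate 1. The 30.0% called lower lies between the 20.6% of all tested genes and the 34.9% of those above 60 CPM, and DESeq2 called 12.2% of all genes it tested lower, so that this list is near its background. Seh1l, a Y complex subunit, had means of 248 ± 6.01 and 209 ± 11.0 CPM and was 1.18-fold lower (edgeR adjusted p = 6.9e-07). Sec13, another subunit, was 1.11-fold lower with overlapping groups (edgeR adjusted p = 0.047), and Ahctf1 was not called (0.26). The count for the Y complex leaves out Seh1l, Sec13 and Ahctf1. Ddx39b, an RNA helicase gene of messenger RNA export, had means of 331 ± 16.3 and 281 ± 6.42 CPM and was 1.18-fold lower as well (edgeR adjusted p = 1.7e-07). Phax, the export adaptor of small nuclear RNA, was 1.19-fold lower (edgeR adjusted p = 0.0022, and 0.053 without EtOH replicate 1). Rangrf, which binds Ran, was 1.68-fold lower from a low level (14.0 ± 0.255 to 8.31 ± 1.26 CPM, edgeR adjusted p = 0.00014).

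The largest change on that list was a rise. Nup62cl, a gene with sequence similarity to Nup62, was at 33.0, 33.2 and 27.8 CPM in EtOH and 86.4, 83.9 and 103 in 4OHT. The groups were far apart (2.91-fold higher, log2 fold change 1.54 with an SE of 0.08, edgeR adjusted p = 1e-45). The other higher gene, Zc3h11a, which encodes an RNA export protein, was 1.08-fold higher (edgeR adjusted p = 0.016). The call was lost with DESeq2 (0.068), with upper quartile factors (0.11) and without EtOH replicate 1 (0.056), EtOH replicate 2 (0.062) or 4OHT replicate 1 (0.095).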

How the data were processed

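The deposited file holds raw counts per gene, 1 column per library, and a gene length in bases. Per the submitters' processing notes, the authors used fastp, STAR and featureCounts on mm10. The sources used here do not give their versions, the annotation, the strand setting or what was done with reads matching more than 1 gene. The kit was a stranded one, per the labels. Genes were kept by edgeR's filterByExpr (minimum count 10, total 15), scaled with TMM factors and compared with edgeR 4.0.16 in R 4.3.3 (robust quasi-likelihood fit and test, Benjamini-Hochberg adjustment over all tested genes, threshold 0.05). Rows with an Entrez identifier but no symbol (1314, between 0.411% and 0.478% of counts) stayed in the fit. Each SE came from the log2 fold change over the root of F. CPM uses TMM-scaled library sizes, and RPKM divides it by the deposited length.

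Genes named with values in every library were Ran, Kpna2, Kpnb1, Xpo1 and Cse1l, the 3 most changed called genes of each role, and the gene with the highest RPKM where fewer than 2 were called. Others shown so were chosen after their values were seen (Tnpo2, Xpo6, Nup62cl). From the list outside the rule, up to 4 called genes in each direction were named. Nupl1, Nupl2, Sec13 and Ahctf1 were added because the counts by part of the pore leave them out. The genes and lists were chosen with earlier results of these data known. Copies are blastn 2.17.0 hits of at least 100 bases and 95% identity among GENCODE vM21 transcripts, and overlaps are exon bases of that annotation. Hits to gene models that overlap the gene at its own locus count among the copies. Every replicate pair differed by more than counting error (chi-square over degrees of freedom between 1.4 and 3.02). Steps were tested on simulated data. Alternatives were other scaling factors and filters, a replicate block, leaving out each library, DESeq2 1.42.0, limma-voom (limma 3.58.1) and a threshold of 0.01, and, added after seeing the data, thinning to equal depth and the background at 60 CPM.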

Additional observations from a re-analysis of the deposited data

How the results depend on the processing

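Over 15 alternatives the count of lower transport genes ran from 26 (DESeq2) to 38 (upper quartile factors), against 33. Of the 33, 25 kept the call under all 15, and the other 8 are those marked in the text. The count of higher genes was 1 in place of 2 with upper quartile factors, DESeq2 and a threshold of 0.01, and between 1 and 3 without single libraries. Partners outside the rule called higher were 1 in place of 2 with upper quartile factors, DESeq2 and the threshold of 0.01, 3 with the replicate block, and between 1 and 2 without single libraries. Those called lower were 17 with upper quartile factors, 6 with DESeq2, 7 at 0.01 and between 6 and 13 without single libraries, against 12. DESeq2 called 1623 of all genes lower, against 2546. The fit with the replicate number as a block called 33 transport genes lower and 2 higher. Same-numbered libraries did not deviate together (correlations −0.000978, −0.0725 and −0.0898), so the numbers were not used as pairs.

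Genes near no change turned sign in log2 fold change, none of them called. Nup50 was at −0.00155 with RLE factors, −0.0318 with upper quartile factors, −0.00313 with the block and −0.00129 with DESeq2. With upper quartile factors Aaas was at −0.0221, Kpna6 at −0.000276 and Nup214 at −0.00315, and Aaas was at −0.0196 after thinning. Nup188 was at 0.00384 with no filter and 0.0012 with the block. Without single libraries Aaas ran from −0.0032 to 0.0247, Ipo13 from −0.0197 to 0.0904, Nup188 from −0.049 to 0.0357, Nup214 from −0.00632 to 0.0962, Nup50 from −0.0358 to 0.0411, Nup54 from −0.0967 to 0.00501, Rae1 from −0.0542 to 0.0162 and Ranbp2 from −0.046 to 0.0199. The cause was not tested.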
